A study of Macaca mulatta with 8 samples.

Results

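The 10 genes of eicosanoid synthesis, response and breakdown followed here in primary microglia of rhesus macaques were PLA2G4A, PTGS1, PTGS2, PTGES, PTGER2, PTGER4, HPGD, ALOX5, ALOX5AP and LTA4H. They were chosen by symbol as prostaglandin and leukotriene pathway genes. All 10 are among the 35432 genes of the count tables, and 9 of them were among the 12131 genes that passed the filter on low counts. Only HPGD did not pass it. Microglia, the resident macrophages of the brain, were isolated from frontal subcortical white matter of 4 adult animals, of which R07110 and R12016 were males, and R02046 and R14143 were females. After 7 days in culture with M-CSF, the cells of each donor received uLPS, an ultrapure lipopolysaccharide that engages TLR4, at 10 µg/mL for 16 h, either alone or after 1 h with 5 µM MRS2578. MRS2578 blocks the UDP receptor P2RY6, and the study's methods describe it as selective without being fully specific. Each donor gave 1 library with uLPS and 1 with uLPS+MRS2578, so that 4 donor pairs were compared. Cells without uLPS, and cells with MRS2578 alone, were not analysed here, so the values show how the antagonist changed the level with uLPS and not what uLPS itself did.

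The conditions of the libraries of R02046 are in doubt. A table of CPM values accompanies the study and covers the 302 genes that it called different with MRS2578, by edgeR at an FDR under 0.05. Each of its 8 columns matched 1 of the libraries. In 6 columns both donor and condition fitted the label of that library, and in the 2 columns of R02046 the conditions were the opposite ones. Results are therefore given with the conditions as labelled, with the libraries of R02046 exchanged, and without R02046. Total counts ran from 9231109 to 32790348. Counts were scaled by edgeR's TMM method to CPM (counts scaled to a common library size), and the limit of 3 counts that a 0 still allows stood for 0.0914 to 0.320 CPM. The macrophage markers CSF1R and CD14 were high in all 8 libraries, at 1007 to 1471 and 4768 to 7646 CPM. The homeostatic microglia marker TMEM119 was at 0 to 0.316 CPM and CX3CR1 at 0.0508 to 2.21 CPM, whereas P2RY12 was at 5.70 to 13.3 CPM. Of the other microglia markers listed, TREM2 was at 11.7 to 39.7, AIF1 at 42.2 to 99.9 and TYROBP at 108 to 227 CPM. C1QB was at 254 to 1211, C1QC at 272 to 953, SPI1 at 403 to 572 and ITGAM at 477 to 915 CPM. C1QA was not found by symbol. Lists of lymphocyte, mast cell and neutrophil markers summed to at most 0.518, 0.107 and 0.457 CPM, with CPA3, HDC, S100A12 and ELANE at 0. The oligodendrocyte list summed to 223 to 407 CPM, the astrocyte list to 68.8 to 188 CPM, the endothelial list to 163 to 296 CPM, the platelet list to 3.24 to 22.2 CPM and the neuron list to 0.0508 to 1.07 CPM, and the microglia list to 8450 to 11691 CPM. Fibroblast and mural cell markers were present, and their values are given with the genes they moved with.

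Eicosanoids are lipid mediators made from arachidonate, which phospholipases cut from membrane lipids. Cyclooxygenases turn arachidonate into prostaglandin H2, from which terminal synthases make prostaglandin E2 and the other prostanoids, and 5-lipoxygenase with its activating protein starts the separate branch that leads to the leukotrienes. In macrophages and microglia, lipopolysaccharide is a classical inducer of the PTGS2 branch, and prostaglandin E2 acts back on the same cells through receptors that raise cyclic AMP.

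Per length of transcript, ALOX5AP stood far above the other genes. CPM was divided by the kilobases of merged exons in the NCBI annotation of the macaque genome Mmul_10, the scale on which the levels of these genes are compared. With uLPS, the mean level of ALOX5AP was 1149 ± 254 CPM per kb (SD, n = 4), above that of 99.7% of the 10604 tested genes with a length. It lay above PTGS2, the next in order, in 8 of 8 libraries. PTGS2 followed at 59.4 ± 76.7, PTGER4 at 49.0 ± 33.8, ALOX5 at 24.4 ± 20.1, LTA4H at 15.8 ± 3.04 and PTGES at 12.7 ± 14.3 CPM per kb. The lowest tested levels were those of PLA2G4A at 6.78 ± 2.59, PTGER2 at 5.08 ± 1.42 and PTGS1 at 3.57 ± 2.04 CPM per kb. The order of PTGS2 and PTGER4 held in 4 of 8 libraries, that of PTGER4 and ALOX5 in 5. Those of ALOX5 over LTA4H and of PTGES over PLA2G4A held in 4 each. The order of these neighbours thus differed between donors, and no test compared them. PTGS2 lay above PTGER4, and PTGES above PLA2G4A, in both libraries of each female and in none of the males. ALOX5 lay above LTA4H in both libraries of R07110 and R02046 only. LTA4H lay above PTGES in 7, PLA2G4A above PTGER2 in 6 and PTGER2 above PTGS1 in 5 of 8 libraries.

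**Figure D1:**
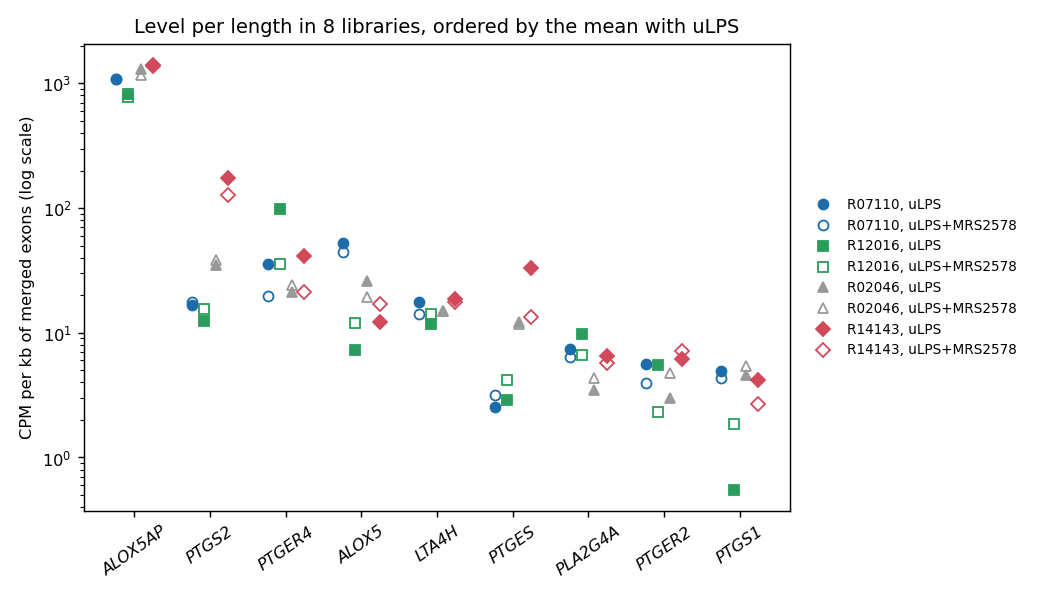
Level of the 9 tested genes in each of the 8 libraries, in CPM per kb of merged exons on a log axis, with filled symbols for uLPS, open symbols for uLPS+MRS2578 and 1 colour and shape per donor. ALOX5AP lies between 778 and 1398 CPM per kb in all libraries, and PTGS2 spreads from 12.4 to 173 CPM per kb between donors.

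PLA2G4A encodes the cytosolic phospholipase A2 that releases arachidonate from membranes, and lies on chromosome 1 from 44064988 to 44212576 (Mmul_10, plus strand). Its values with uLPS and uLPS+MRS2578 were 24.5 and 21.0 CPM in R07110, 32.1 and 21.9 CPM in R12016, 11.4 and 14.3 CPM in R02046, and 21.5 and 19.1 CPM in R14143. The level was lower with MRS2578 in 3 donors and higher in R02046 as labelled, and the conditions overlapped. The log2 fold change, uLPS+MRS2578 against uLPS, was −0.17 (SE 0.16, edgeR adjusted p = 0.906), and −0.32 (SE 0.12, edgeR adjusted p = 0.242) with R02046 exchanged. PLA2G4A and PTGER4 were the 2 of 9 genes lower in R07110, R12016 and R14143 alike, where 19.8% of all genes tested were lower and 17% higher. As labelled, 0 of 9 genes were lower, and 0 higher, in all 4 donors, against 6.49% and 6.43% of all genes. With R02046 exchanged, PLA2G4A and PTGER4 were lower in all 4, against 13.2%, and 0 of 9 were higher, against 10.6%.

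The 2 cyclooxygenases behaved differently between donors. PTGS1 (chromosome 15, 20307153 to 20331953, minus strand) encodes the constitutive cyclooxygenase, and PTGS2 (chromosome 1, 43912072 to 43921017, minus strand) the inducible one. PTGS1 was at 25.2 and 22.2 CPM with uLPS and uLPS+MRS2578 in R07110, at 2.81 and 9.49 CPM in R12016, at 23.7 and 27.6 CPM in R02046, and at 21.5 and 13.9 CPM in R14143. Both libraries of R12016 were below all others. MRS2578 went with a higher PTGS1 level in R12016, at 3.38 times that with uLPS (95% counting interval 2.40 to 4.84), and with a lower one in R14143, at 0.645 times (0.549 to 0.756). Such intervals, here and below, cover the counting error of single libraries only. Across donors the log2 fold change of PTGS1 was 0.19 (SE 0.34, edgeR adjusted p = 0.948).

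PTGS2 set the donors apart more than any other of the 9 genes. It was at 74.9 and 79.9 CPM with uLPS and uLPS+MRS2578 in R07110, at 56.0 and 69.4 CPM in R12016, at 158 and 173 CPM in R02046, and at 782 and 572 CPM in R14143. Both females lay above both males in each condition, and R14143 stood far above the other 3 donors. The mean log2 CPM of the donors spanned 10.7-fold, a wider span than that of 98.8% of tested genes. In edgeR's quasi-likelihood F-test of the donor terms, PTGS2 passed (F = 139, adjusted p = 0.00115), and it also passed without each donor in turn, with adjusted p between 0.0021 and 0.0242. MRS2578 went with small and unequal differences: a higher level in R07110, R12016 and R02046 as labelled, by 1.07, 1.24 and 1.10 times, and a lower one in R14143, at 0.732 times (0.714 to 0.751). The log2 fold change over the 4 donors was 0.02 (SE 0.14, edgeR adjusted p = 0.991), with a 95% interval of −0.31 to 0.35, and it was −0.05 with R02046 exchanged. Relative to PTGS1 per length, PTGS2 was 3.39 to 46.9 times as high in the 8 libraries, lowest in R07110 and highest in R14143.

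PTGES (chromosome 15, 10773986 to 10789452, plus strand) encodes the inducible microsomal prostaglandin E synthase, which acts downstream of PTGS2, and its donors were in the same order as for PTGS2 except that the males were reversed. It was at 2.56 and 3.19 CPM with uLPS and uLPS+MRS2578 in R07110, at 2.94 and 4.24 CPM in R12016, at 12.3 and 11.8 CPM in R02046, and at 33.4 and 13.6 CPM in R14143. All libraries of the females were above all libraries of the males. The donors spanned 7.22-fold (edgeR F = 21.4, adjusted p = 0.0222), which no longer passed without R07110 (adjusted p = 0.0651). In R14143 the level with MRS2578 was 0.407 times that with uLPS (0.350 to 0.472), whereas the counting intervals of the other donors included 1. Over the 4 donors the log2 fold change was −0.20 (SE 0.31, edgeR adjusted p = 0.942), and without R14143 it was 0.25.

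The summed markers of fibroblasts and mural cells were higher in the females than in the males, as were both genes. They did not follow both genes in every donor or condition. Of the 6 listed, COL1A1, COL1A2 and DCN carried most of the sum, while LUM and PDGFRB stayed at or below 5.13 CPM and RGS5 at or below 0.146 CPM. Their summed level with uLPS and uLPS+MRS2578 was 126 and 194 CPM in R07110, 80.8 and 189 CPM in R12016, 323 and 400 CPM in R02046, and 987 and 365 CPM in R14143. The sum was thus highest in the uLPS library of R14143, the library with the highest PTGS2 and PTGES, and lower there with MRS2578. In the males it was also higher with MRS2578, where PTGS2 and PTGES were at 1.07 to 1.44 times their uLPS level. In R02046 as labelled the sum was higher with MRS2578, as was PTGS2, while PTGES was not (12.3 and 11.8 CPM). With MRS2578 as labelled, the sum was lower in R14143 (365 CPM) than in R02046 (400 CPM). PTGS2 was higher in R14143 there, at 572 against 173 CPM, and PTGES was at 13.6 against 11.8 CPM. With R02046 exchanged, the sum of that donor with MRS2578 was 323 CPM instead. The part of the marker sum in these differences was not tested. In bulk RNA, a change in the share of cells of a type and a change in RNA per cell cannot be told apart, and each donor was cultured once per condition. Sex and individual also cannot be told apart with 2 animals of each sex.

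**Figure D2:**
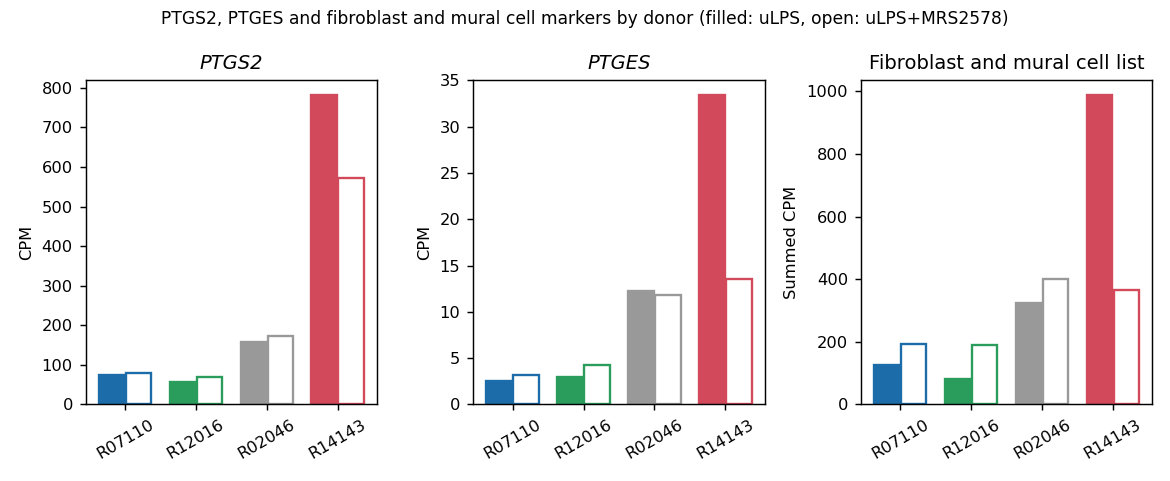
CPM of PTGS2 (left) and PTGES (middle) and summed CPM of the 6 fibroblast and mural cell markers (right) for each donor, 1 bar per library, filled for uLPS and open for uLPS+MRS2578. PTGS2 reaches 782 CPM, PTGES 33.4 CPM and the marker sum 987 CPM in the uLPS library of R14143, and all 3 are lower in its MRS2578 library.

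The genome sequence just before the annotated starts of PTGS2 and PTGES is shown because both genes were higher in the females than in the males, with R14143 highest. The males were in opposite order, with R12016 lowest in PTGS2 and R07110 lowest in PTGES. Each window is the 250 bases before the RefSeq start in Mmul_10, written 5′ to 3′ on the strand of the gene, PTGS2 at chr1:43921018-43921267 (minus strand) and PTGES at chr15:10773736-10773985 (plus strand). Capitals mark matches, on either strand, to any of 4 motifs. The letters TATAAA stand for the core promoter element bound by the TATA-binding protein. The core of the cyclic AMP response element was searched as TGACG, and the C/EBP motif as TTNCNNAA. For the GC box, added after the windows had been read, the letters were GGGCGG. The NF-kB motif was searched only in the strict form GGGRNNYYCC, where R is A or G, Y is C or T and N is any base. No 2 matches in these windows overlapped, except that the C/EBP match fits TTNCNNAA on both strands.
PTGS2: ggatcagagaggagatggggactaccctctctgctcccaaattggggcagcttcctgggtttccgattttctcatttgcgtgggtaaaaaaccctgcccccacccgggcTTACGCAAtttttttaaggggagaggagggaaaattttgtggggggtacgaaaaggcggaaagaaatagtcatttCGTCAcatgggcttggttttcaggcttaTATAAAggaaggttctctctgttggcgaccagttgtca
PTGES: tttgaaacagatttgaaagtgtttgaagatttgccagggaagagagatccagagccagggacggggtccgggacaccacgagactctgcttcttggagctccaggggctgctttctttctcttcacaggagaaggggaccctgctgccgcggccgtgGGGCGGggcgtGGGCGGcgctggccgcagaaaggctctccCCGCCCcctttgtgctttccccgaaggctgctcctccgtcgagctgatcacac
The PTGS2 window held a TATA box whose match began 38 bases before the start and a TGACG match on the opposite strand at 66 bases. It also held a C/EBP match, on both strands, at 141 bases. The PTGES window held none of these 3 letter strings and had 3 GC box matches instead, at 93, 82 and 53 bases. Neither window had a match to the NF-kB motif in the form searched. The PTGS2 window does hold GGGACTACCC, which has A where that form needs C or T, so the search did not cover looser NF-kB sites. Among 20782 windows of the same length before protein-coding genes, TATAAA occurred in 9.8%, TGACG in 19.8%, TTNCNNAA in 31.7%, GGGCGG in 43.7% and the NF-kB motif in 9.6%. The windows shared none of the 5 motifs in the forms searched. They come from the reference genome and not from the donors, so they cannot bear on the difference between donors. PTGS2 and PTGES had GC contents of 49.2% and 61.6% in these windows.

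PTGER4 showed the largest difference with MRS2578 among the 9 genes. It lies on chromosome 6 from 40540897 to 40554679 (plus strand) and encodes EP4, a prostaglandin E2 receptor that raises cyclic AMP. With uLPS and uLPS+MRS2578 it was at 129 and 71.9 CPM in R07110, at 356 and 128 CPM in R12016, at 76.3 and 86.8 CPM in R02046, and at 151 and 76.6 CPM in R14143. The level with MRS2578 was 0.559 times that with uLPS in R07110 (0.528 to 0.591), 0.360 times in R12016 (0.342 to 0.378) and 0.509 times in R14143 (0.477 to 0.543). In R02046 it was 1.14 times as labelled (1.04 to 1.25), the opposite direction. In R07110, R12016 and R14143 the conditions did not overlap, though only narrowly, since the highest level with MRS2578 (R12016) lay just under the lowest with uLPS (R07110). The uLPS level of R02046 as labelled lay within the range with MRS2578. The marker lists of microglia and platelets went in the same direction as PTGER4 in each donor. Without and with MRS2578, the microglia list summed to 10513 and 9024 CPM in R07110, 11691 and 8450 CPM in R12016, 8822 and 9938 CPM in R02046, and 11348 and 9940 CPM in R14143. The platelet list summed to 22.2 and 12.7 CPM, 7.66 and 4.49 CPM, 4.91 and 8.05 CPM, and 11.9 and 3.24 CPM in the same order of donors. CD14 alone, at 4768 to 7646 CPM, was the largest part of the microglia sum. The platelet sum was almost all PPBP and PF4, which reached 10.4 and 11.8 CPM. ITGA2B and GP9 stayed at or below 0.128 and 0.379 CPM. The sums thus rest on few genes and do not measure shares of cells. The part of these lists in the difference of PTGER4 was not tested. The mean of PTGER4 was 178 ± 123 CPM with uLPS and 90.8 ± 25.5 CPM with uLPS+MRS2578 (SD, n = 4).

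The call for PTGER4 did not pass under any of the 3 assignments. As labelled, its log2 fold change was −0.79 (SE 0.25, 95% interval −1.37 to −0.20), with an edgeR unadjusted p of 0.0159 and an adjusted p of 0.878. With R02046 exchanged it was −0.88 (SE 0.18, 95% interval −1.30 to −0.46, edgeR adjusted p = 0.0817). Without R02046 it was −1.10 (SE 0.15, 95% interval −1.46 to −0.74), with an edgeR unadjusted p of 3.0e-04 and an adjusted p of 0.124. An exact permutation test over 4 donor pairs cannot give a two-sided p below 0.125. With R02046 exchanged, edgeR's likelihood ratio test and DESeq2's Wald test called PTGER4, with adjusted p of 9.3e-04 and 3.9e-04. The sign was negative in all 19 alternative fits, from −1.10 to −0.55. PTGER4 is among the 302 genes that the study itself called with edgeR at an FDR under 0.05, with a design it does not give. Those genes were selected on these same libraries, so the place of PTGER4 there is not independent evidence.

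PTGER2 (chromosome 7, 114426946 to 114441300, plus strand) encodes EP2, the other prostaglandin E2 receptor that raises cyclic AMP. It was at 24.7 and 17.4 CPM with uLPS and uLPS+MRS2578 in R07110, at 24.3 and 10.2 CPM in R12016, at 13.1 and 20.7 CPM in R02046, and at 27.1 and 31.2 CPM in R14143. Both males were lower with MRS2578, at 0.704 times (0.625 to 0.792) and 0.419 times (0.346 to 0.505), whereas both females were higher as labelled. Sex by condition was not tested. The log2 fold change was −0.23 (SE 0.30, edgeR adjusted p = 0.931), −0.52 (SE 0.21, edgeR adjusted p = 0.280) with R02046 exchanged and 0.09 without R12016. Per length, PTGER4 was 2.97 to 17.7 times as high as PTGER2 in the 8 libraries.

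HPGD (chromosome 5, 171785257 to 171817063, minus strand) encodes 15-hydroxyprostaglandin dehydrogenase, the enzyme that inactivates prostaglandin E2. It had 7 counts in all, 2 with uLPS and 5 with uLPS+MRS2578 in R12016, and 0 in the other 6 libraries. These are at or near the limit of 3 counts, so a change could not be tested at this depth.

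**Figure D3:**
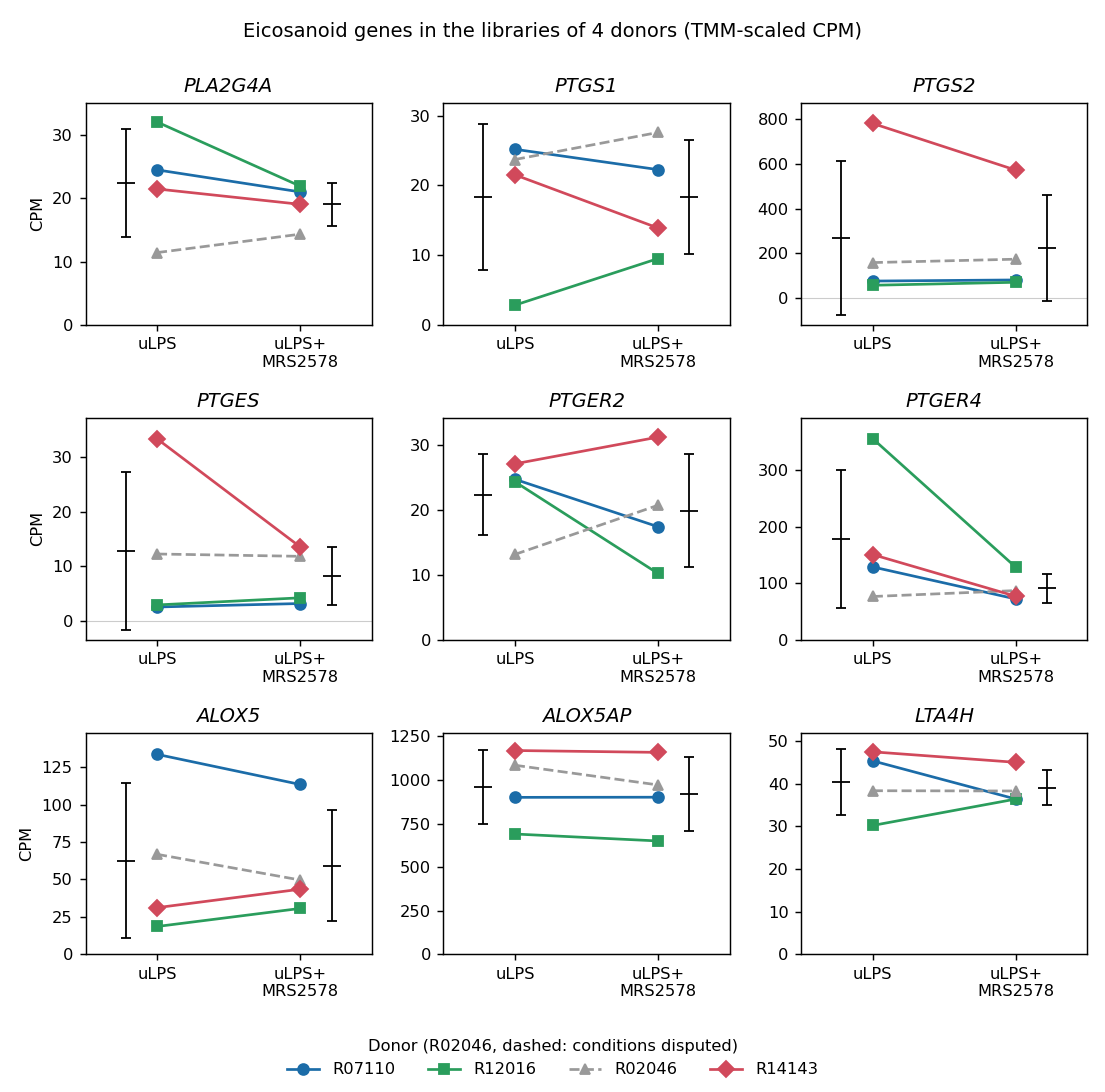
CPM of the 9 tested genes in the uLPS and uLPS+MRS2578 libraries, with 1 line per donor (R02046 dashed) and black bars for the mean ± SD of 4 libraries beside each condition. PTGER4 runs downward in R07110, R12016 and R14143 and slightly upward in R02046, while the lines of ALOX5AP are nearly flat.

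In the leukotriene branch, the donors spanned a wider range in ALOX5 than in ALOX5AP or LTA4H. ALOX5 (chromosome 9, 46585862 to 46646535, plus strand) encodes 5-lipoxygenase, which oxidises arachidonate to leukotriene A4. It was at 133 and 113 CPM with uLPS and uLPS+MRS2578 in R07110, at 18.6 and 30.7 CPM in R12016, at 66.8 and 49.7 CPM in R02046, and at 31.2 and 43.5 CPM in R14143. R07110 was highest and R12016 lowest in both conditions. The donors spanned 5.13-fold (edgeR F = 25.9, adjusted p = 0.0167), which did not pass without R07110 (adjusted p = 0.113). The difference with MRS2578 went both ways, at 0.849 times in R07110 and 0.743 times in R02046 as labelled, and 1.65 and 1.39 times in R12016 and R14143. The log2 fold change was 0.13 (SE 0.20, edgeR adjusted p = 0.942), and 0.33 (SE 0.15, edgeR adjusted p = 0.334) with R02046 exchanged. A long noncoding RNA on the opposite strand shares 143 bases of exon with ALOX5, and the strand setting of the counting is not given in the sources used here, so reads there cannot be told apart.

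ALOX5AP (chromosome 17, 9794390 to 9819196, plus strand) encodes the activating protein that presents arachidonate to 5-lipoxygenase. It was at 900 and 901 CPM with uLPS and uLPS+MRS2578 in R07110, at 690 and 650.3 CPM in R12016, at 1084 and 971 CPM in R02046, and at 1169 and 1158 CPM in R14143. R12016 was lowest and R14143 highest in both conditions, and the log2 fold change was −0.06 (SE 0.11, edgeR adjusted p = 0.945). Its 95% interval, −0.32 to 0.19, leaves room for a modest change in either direction. The donors spanned 1.74-fold (edgeR adjusted p = 0.0702). The transcript level of ALOX5AP was 20.7 to 115 times that of ALOX5 per length, lowest in R07110, where ALOX5 was highest.

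LTA4H (chromosome 11, 95800684 to 95836586, minus strand) encodes the hydrolase that makes leukotriene B4, a chemoattractant of neutrophils. It was at 45.3 and 36.4 CPM with uLPS and uLPS+MRS2578 in R07110, at 30.2 and 36.4 CPM in R12016, at 38.3 CPM in both libraries of R02046, and at 47.4 and 45.0 CPM in R14143. The donors spanned 1.39-fold, the narrowest span of the 9 genes (edgeR adjusted p = 0.293). Its log2 fold change with MRS2578 was −0.03 (SE 0.12, edgeR adjusted p = 0.977).

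No gene of the pathway passed the test for MRS2578 under the 3 assignments. With the conditions as labelled, 0 of 9 genes passed an adjusted p of 0.05 in edgeR's quasi-likelihood test, where 0% of the 12131 genes tested passed, and 1 of 9 (PTGER4) had an unadjusted p under 0.05, against 5.14% of all genes. With R02046 exchanged, 0 of 9 passed, against 0.618% of all genes (75 genes, 0.519% lower and 0.0989% higher), and 3 of 9 (PTGER4, PLA2G4A and PTGER2) had an unadjusted p under 0.05, against 16.4%. Without R02046, 0 of 9 passed, against 0% of 12295 genes, and 1 of 9 had an unadjusted p under 0.05, against 13.6%. By DESeq2's Wald test and edgeR's likelihood ratio test, 0 of 9 passed as labelled, where 0.00824% and 0.0412% of all genes passed. PTGER4 alone, 1 of 9, passed with R02046 exchanged, where 5% passed by DESeq2 and 5.08% by the likelihood ratio test. The log2 fold change was negative in 6 of 9 genes as labelled, against 52.1% of all genes, with a median of −0.06 against −0.01. It was negative in 6 of 9 with R02046 exchanged, against 49.8%, and in 7 of 9 without R02046, against 50.5%. The 3 assignments differ only in R02046, so their calls share the other libraries and are not separate evidence.

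**Figure D4:**
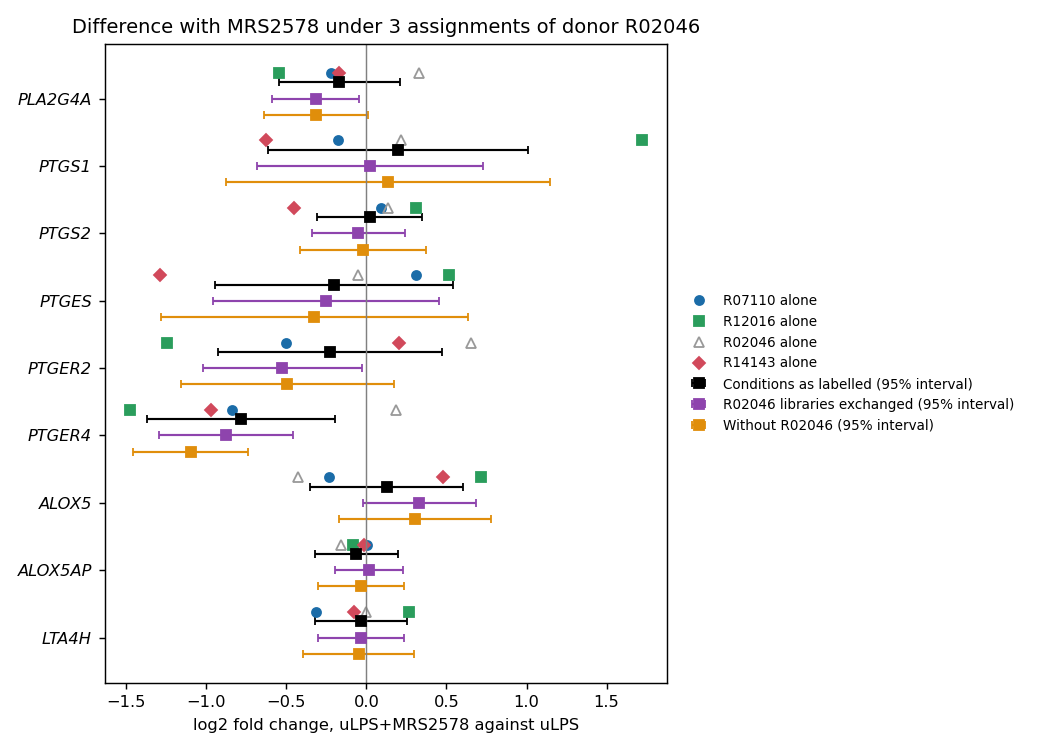
Log2 fold change (uLPS+MRS2578 against uLPS) of the 9 tested genes, with squares and 95% intervals for the fits as labelled, with R02046 exchanged and without R02046, and small symbols for the difference in each donor. Only the intervals of PTGER4 exclude 0 under all 3 assignments, at −0.79, −0.88 and −1.10.

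Differences between donors, in contrast, passed the test in some of the genes. As labelled, 3 of 9 genes passed the donor test (PTGS2, PTGES and ALOX5), against 7.35% of all genes tested. With R02046 exchanged it was 6 of 9, with PLA2G4A, PTGER4 and ALOX5AP added, against 18.9% of all genes. The median span between donors was 2.62-fold for the 9 genes and 1.47-fold for all genes tested. PTGS1, at 4.85-fold, and PTGER4, at 2.62-fold, did not pass as labelled (edgeR adjusted p = 0.109 and 0.103). In both, R12016 was the donor apart, with the lowest PTGS1 and the highest PTGER4.

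The genes closest in pattern were sought for PTGS2, PTGER4 and ALOX5AP by the root mean square difference of log2 CPM over the 8 libraries, after each gene was centred on its own mean. Closest to PTGER4 were CD80, a costimulatory ligand of antigen-presenting cells, at 0.146, RIPK2, a kinase of NOD receptor signalling, at 0.168, and DNPEP at 0.211, where the median over all genes was 0.785. Closest to PTGS2 were ADGRG6 at 0.392, THBD (thrombomodulin) at 0.506 and SFRP2, a secreted Wnt modulator, at 0.508, against a median of 1.37. ALOX5AP had CLDND1, VARS1 and MTG2 as its closest, at 0.0815 to 0.0835 against a median of 0.409. These are descriptions over 8 libraries of 4 animals, in which differences between donors dominate.

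The rest of the pathway was read from a list. Of 53 further eicosanoid genes listed by role, 48 were found in the count tables by symbol, 29 passed the filter on low counts, and 0 rose and 0 fell at an adjusted p of 0.05 in edgeR's test under any of the 3 assignments. As labelled, 16 were below 0 and 13 above, with a median log2 fold change of −0.00 and a range of −0.56 to 0.44. The lowest adjusted p was 0.878 as labelled and 0.0741 with R02046 exchanged, the latter for PLA2G4C, a calcium-independent phospholipase A2, at a log2 fold change of −0.62. With R02046 exchanged, 3 of the 29 passed by the likelihood ratio test and 3 by DESeq2, where 5.08% and 5% of all genes passed.

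The genes named next are the 3 with the highest mean CPM in each role. CPM is not scaled by length, so these values are not compared between genes. Means are for the conditions as labelled. Among phospholipases and arachidonate handling they were ACSL4, which ties arachidonate to coenzyme A, with means of 417 ± 142 and 389 ± 42.5 CPM without and with MRS2578, and MGLL, which hydrolyses 2-arachidonoylglycerol, at 416 ± 99.7 and 348 ± 64.7 CPM (SD, n = 4). PLA2G15, a lysosomal phospholipase, was at 198 ± 40.3 and 196 ± 21.8 CPM. Among the prostanoid synthases, thromboxane synthase TBXAS1 was at 248 ± 16.4 and 262 ± 18.8 CPM, the cytosolic prostaglandin E synthase PTGES3 at 222 ± 41.7 and 267 ± 49.6 CPM, and the carbonyl reductase CBR1 at 136 ± 32.2 and 133 ± 15.6 CPM. None of these 6 genes passed edgeR's test, with adjusted p as labelled from 0.882 (PTGES3) to 0.998 (PLA2G15). With R02046 exchanged, edgeR's adjusted p ran from 0.104 (MGLL, log2 fold change −0.48) to 0.787 (PLA2G15). PTGES3 was then at a log2 fold change of 0.39 (edgeR adjusted p = 0.198).

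Of the enzymes of the leukotriene and lipoxygenase role, MGST3 was at 51.1 ± 14.5 CPM with uLPS, MGST2 at 19.6 ± 5.52 CPM, and the leukotriene C4 synthase LTC4S at 2.74 ± 1.03 CPM. The cysteinyl leukotriene receptor CYSLTR1 was at 43.0 ± 8.92 CPM, the prostacyclin receptor PTGIR at 21.6 ± 4.99 CPM, and the prostaglandin F receptor PTGFR at 4.79 ± 4.50 CPM. The leukotriene B4 receptors LTB4R and LTB4R2, chosen here after their values were seen, had 6 and 7 counts over all 8 libraries, near the limit of detection. Of the export and breakdown genes, the transporters ABCC4 and ABCC1 were at 161 ± 52.0 and 90.8 ± 29.0 CPM and the reductase PTGR2 at 29.9 ± 7.30 CPM. PLAAT3, a phospholipase, with ABCC4 and ABCC1 made up the 3 of 29 genes that passed the donor test, where 7.35% of all genes passed, and the donors spanned 11.2-fold in PLAAT3 (edgeR adjusted p = 0.00275).

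**Figure D5:**
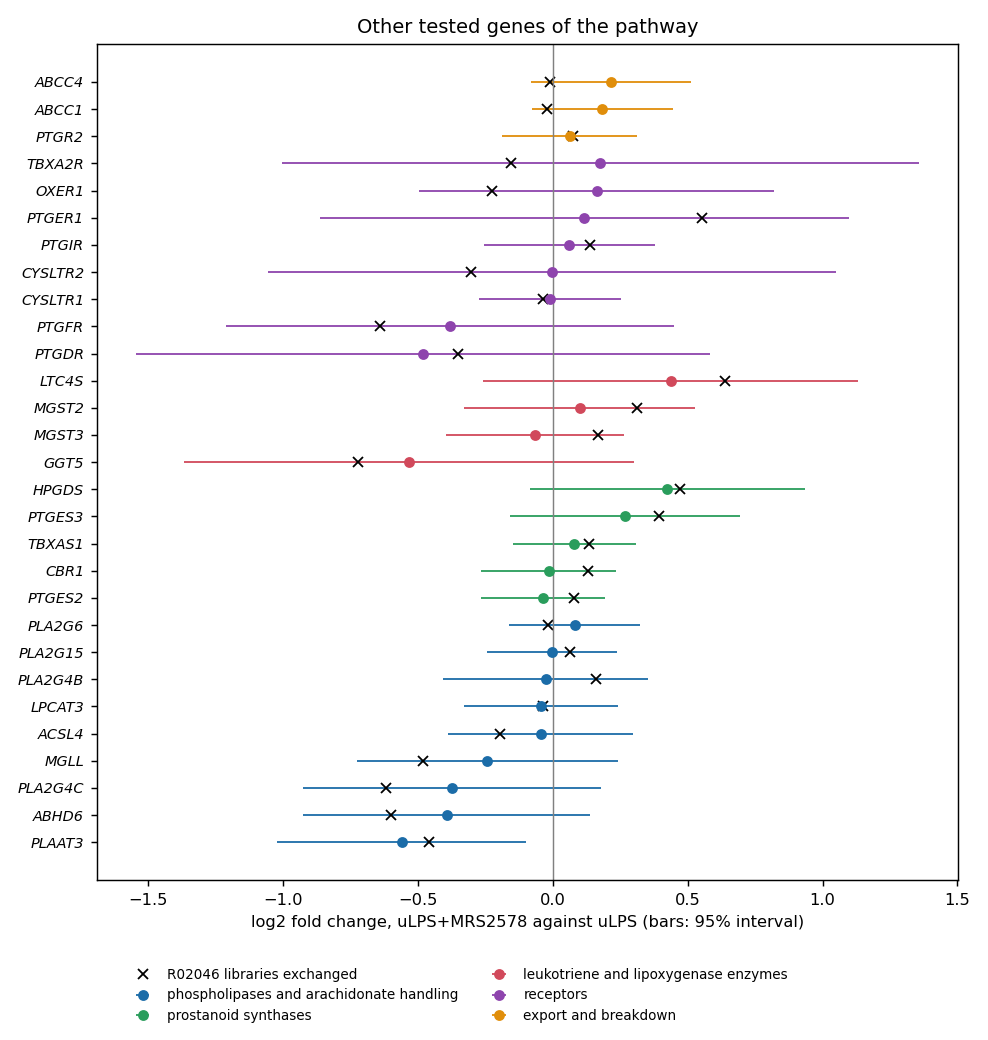
Log2 fold change (uLPS+MRS2578 against uLPS) of the 29 other tested eicosanoid genes, coloured by role, with points and 95% intervals for the conditions as labelled and crosses for R02046 exchanged. The points run from −0.56 (PLAAT3) to 0.44 (LTC4S), and none passed an adjusted p of 0.05.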

How the data were processed

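RNA was measured in 8 libraries of primary macaque microglia, 1 per donor and condition, made with a directional poly(A) kit for an Illumina NovaSeq. The authors deposited whole-number read counts per Ensembl gene, without normalization. Per the paper, reads were trimmed with fastp, aligned to Mmul_10 with STAR and counted with HTSeq over exons, unique reads only. The submitters' processing notes instead name Trimmomatic 0.30, TopHat2 2.0.14, SAMtools 1.3 and HTSeq 0.6.1p1, also with Mmul_10. The strand setting and annotation release are not given in the sources used here. The labels give 10 ng/mL M-CSF, a dose on which the paper's methods differ, and DMSO controls are stated in the paper only.

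Counts were analysed in R 4.3.3 with edgeR 4.0.16 (limma 3.58.1) and DESeq2 1.42.0. Genes were kept by filterByExpr with a minimum count of 10, scaled by TMM and tested with the quasi-likelihood F-test, donor as a block, with Benjamini-Hochberg adjustment over all genes and a threshold of 0.05. The donor test covered the 3 donor terms of the same model. A donor's libraries come from 1 animal, and their deviations from the condition means correlated at 0.458 to 0.602 across genes. Replicates are animals, so p-values of the MRS2578 test measure the spread of the difference between animals, cultured once each per condition. The donor test sets levels between animals against what is left between the 2 libraries of an animal after the condition. In it, libraries with different treatment stand in for replicates of a donor. A prior count of 2 was added for log2 CPM. The smallest chi-square per degree of freedom between libraries was 19.6, so none was a duplicate. The script was tested on simulated data.

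The members, the further eicosanoid genes and the marker lists were chosen with earlier results of these data known. Named are the 10 members, further genes called in any of the 3 assignments, the 3 with the highest mean CPM in each role, and the 3 nearest in pattern to PTGS2, PTGER4 and ALOX5AP. Alternatives were DESeq2 size factors, DESeq2's Wald test, the likelihood ratio test, other filters, no block, each donor left out, R02046 exchanged, another prior count, other CPM scalings and another gene length. Positions, lengths and sequences are those of RefSeq in Mmul_10.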

Additional observations from a re-analysis of the deposited data

Results flagged for a closer look

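A sample far from the others was sought in 27 groups of 4 values, by the gap of the lowest or highest value to its neighbour as a share of the range. It was found in 2 groups, and chance alone gives about 1 in 20. PTGS1 with uLPS was lowest in R12016, at 2.81 CPM, with a gap of 0.927 of the range. PTGER2 with uLPS as labelled was lowest in R02046, at 13.1 CPM, with a gap of 0.851. With R02046 exchanged, the PTGER2 level with uLPS was 24.2 ± 2.64 CPM (SD, n = 4), and 25.4 ± 1.50 CPM (SD, n = 3) without that donor.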

How the results depend on the processing

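With the conditions as labelled, the number of genes with MRS2578 effect was 0, 1 by DESeq2's Wald test and 5 by the likelihood ratio test. With R02046 exchanged it was 75, 39 with edgeR's earlier quasi-likelihood estimation, 616 by the likelihood ratio test and 583 by DESeq2. These combinations, and the earlier estimation, were chosen after seeing the data. Leaving out donors gave 0 to 918 genes, with 918 without R14143 and 5 without R12016 when R02046 was exchanged. Of the 9 pathway genes, 1 (PTGER4) passed by the likelihood ratio test and by DESeq2 with R02046 exchanged, where 5.08% and 5% of all genes passed. Of the further eicosanoid genes, 3 passed by either test there. With a donor left out as labelled, 0 of the 9, 0 of the further genes and 0 of all genes passed. With R02046 exchanged and without R14143, where 918 genes passed, 2 of the 9 and 4 of the further genes passed. The 2 were PTGER4 (edgeR adjusted p = 0.0447) and PTGER2 (log2 fold change −0.80, edgeR adjusted p = 0.0339). Of 12131 genes tested, the donor test called 892 (7.35%), 2773 by the likelihood ratio test and 2288 (18.9%) with R02046 exchanged. With a donor left out it called 333 to 909 genes. Of the 9 pathway genes it called 3, 7, 6 and 1 to 5 in the same order.

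Without the donor block in the paired design, the log2 fold change of PTGS1 was −0.00276, that of PTGS2 −0.26 and that of ALOX5 −0.078, each of the opposite sign. That of PTGER4 was −0.97, and no call changed. With R02046 exchanged as well, PTGS1 was at −0.17, PTGS2 at −0.30 and ALOX5AP at 0.024. With the exchange alone, PTGS2 was at −0.050 and ALOX5AP at 0.015. PTGS2 was then at −0.049 under both the earlier estimation and the likelihood ratio test, with ALOX5AP at 0.015 in each, and at −0.055 by DESeq2, with ALOX5AP at 0.0087. With a donor left out, as labelled or with R02046 exchanged, values of both signs occurred in 7 genes. For ALOX5AP the sign followed the exchange and not the donor left out. PTGS1 ran from −0.33 to 0.52, PTGS2 from −0.16 to 0.17, PTGES from −0.46 to 0.26, PTGER2 from −0.80 to 0.093, ALOX5 from −0.061 to 0.54, ALOX5AP from −0.090 to 0.055 and LTA4H from −0.13 to 0.062. PTGER4 and PLA2G4A stayed negative in all 19 alternative fits. The cause of these differences was not tested. With 4 donors of which 1 has disputed conditions, a modest change of a single gene can be missed, and HPGD was too low to test.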
